A study of Mus musculus with 43 samples.

Results

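The 9 genes described here, Cyp26a1, Cyp26b1, Crabp1, Crabp2, Rbp4, Stra6, Rarb, Rarg and Dhrs3, encode enzymes, carriers and receptors of the vitamin A (retinoid) pathway. They were selected by symbol from a table of 22462 genes, and the set was proposed with the values of that same table known, so their values are given as a description and not as a test. The table compares RNA-seq of control E14 cells with RNA-seq of E14 cells lacking MTF2, 3 libraries of each. E14 (ES-E14TG2a) is a mouse embryonic stem cell line, grown here in serum with the cytokine LIF on gelatin-coated plates. MTF2 is a Polycomb-like subunit of Polycomb repressive complex 2, which methylates lysine 27 of histone H3. The series also holds 36 ChIP-seq samples and 1 input, some of them from knockout cells given back wild-type or K339A MTF2, and these were not analysed here. No retinoid was named as added to any group, and how the knockout was made and how many clones it comprised are not given in the sources used here.

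Retinol travels in blood bound to RBP4, enters cells through the receptor STRA6 and is oxidised to retinaldehyde and then to retinoic acid. Inside the cell, CRABP1 and CRABP2 carry retinoic acid, CYP26 enzymes break it down, and DHRS3 turns retinaldehyde back into retinol. Retinoic acid acts through the nuclear receptors RARA, RARB and RARG, which bind DNA paired with RXR receptors, commonly at repeats of a short hexamer. In embryonic stem cells retinoic acid is a classical inducer of differentiation, and Cyp26a1 and Rarb are textbook targets of its receptors.

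The sequences upstream of the 4 genes on which the results turn were taken from RefSeq promoter windows on GRCm38.p6, the reference that corresponds to mm10. Each stretch below covers the 250 bases before the annotated start, read 5′ to 3′ on the strand of the gene. The first pair is shown because it holds a receptor-type repeat, marked in capitals: Cyp26a1 at chr19:37697558-37697807 (plus strand) and Rarb at chr14:16575477-16575726 (minus strand).
Cyp26a1: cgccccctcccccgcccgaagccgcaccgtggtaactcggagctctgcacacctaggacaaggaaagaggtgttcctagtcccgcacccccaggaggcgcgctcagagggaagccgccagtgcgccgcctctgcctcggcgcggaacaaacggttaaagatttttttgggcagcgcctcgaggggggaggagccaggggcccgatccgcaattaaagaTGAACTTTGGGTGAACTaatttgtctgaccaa
Rarb: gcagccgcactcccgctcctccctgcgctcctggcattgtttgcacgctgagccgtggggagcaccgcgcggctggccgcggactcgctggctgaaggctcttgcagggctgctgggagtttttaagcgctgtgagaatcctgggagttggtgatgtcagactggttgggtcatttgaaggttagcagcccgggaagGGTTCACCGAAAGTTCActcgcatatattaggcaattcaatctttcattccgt
The hexamers searched were AGGTCA, its variant AGTTCA, the form GGGTCA and the form GGTTCA, as direct repeats with 1, 2 or 5 bases between them, on both strands. In Cyp26a1 the repeat lay on the strand opposite to the gene, 32 to 16 bases before the start, and reads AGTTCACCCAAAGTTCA on that strand. In Rarb it lay on the gene's own strand, 53 to 37 bases before the start, and reads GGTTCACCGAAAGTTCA. The hexamers are 5 bases apart in both, and their second hexamer is AGTTCA.

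The second pair, Crabp1 at chr9:54764498-54764747 (plus strand) and Rarg at chr15:102257523-102257772 (minus strand), is shown because these are the members that the authors' test called lower. Here the capitals mark CG dinucleotides, since Polycomb repressive complex 2 is known to occupy CG-rich promoters.
Crabp1: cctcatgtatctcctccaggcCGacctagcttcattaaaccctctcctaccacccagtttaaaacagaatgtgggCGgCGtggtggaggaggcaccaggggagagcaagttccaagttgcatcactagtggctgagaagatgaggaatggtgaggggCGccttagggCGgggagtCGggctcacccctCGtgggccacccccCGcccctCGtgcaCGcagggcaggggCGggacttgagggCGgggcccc
Rarg: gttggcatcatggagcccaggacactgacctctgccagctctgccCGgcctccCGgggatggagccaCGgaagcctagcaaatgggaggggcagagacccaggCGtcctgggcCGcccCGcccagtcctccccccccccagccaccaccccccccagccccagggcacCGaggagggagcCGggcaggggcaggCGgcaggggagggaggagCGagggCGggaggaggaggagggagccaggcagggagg
These stretches hold 12 CG dinucleotides in Crabp1 and 11 in Rarg, against 20 in the Cyp26a1 stretch and 16 in the Rarb stretch.

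Among 32851 promoter windows of 300 bases (250 before to 50 after the start) from 27025 genes, 32 windows, or 0.0974%, held a repeat with a gap of 5. Repeats with a gap of 1 and of 2 were found in 0.222% and 0.268% of windows, and at least 1 hexamer in 43.7%. Of the 9 genes, 8 had an entry, with 15 windows in all, and Crabp2 had none. A gap of 5 was found in 2 of these 15 windows, those of Cyp26a1 and Rarb, and a gap of 1 or 2 in 0. None of the 74 windows of 57 other retinoid pathway genes held the repeat with a gap of 5. A match describes letters in the window and is not a measured binding site.

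Genes with this repeat lay on both sides of 0 in these cells. Of the 31 genes with such a window, 13 were in the expression table and 5 were tested there. The authors' Cuffdiff test called 0 of the 5, and 1 of them had an unadjusted p under 0.05. Their log2 ratios ran from -0.67 for Syndig1 to 7.65 for Cyp26a1, with a median of 0.77 and a highest value of 2.41 besides Cyp26a1. Rarb, which carries the same kind of repeat, was under 1 FPKM in both groups and was not tested.

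CG content at the starts also varied among the members. The Cyp26a1 window held 26 CG dinucleotides, more than 83.1% of all windows, while the median window held 7 and the upper quartile began at 20. Crabp1 and Rarb held 17 each, Rarg 12 and 10 at its annotated starts, and Cyp26b1 9. Rbp4 ranged from 5 at one start to 40 at the other, and Stra6 from 5 to 10 over 4 starts. Dhrs3 held 21, 10 and 9.

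**Figure D1:**
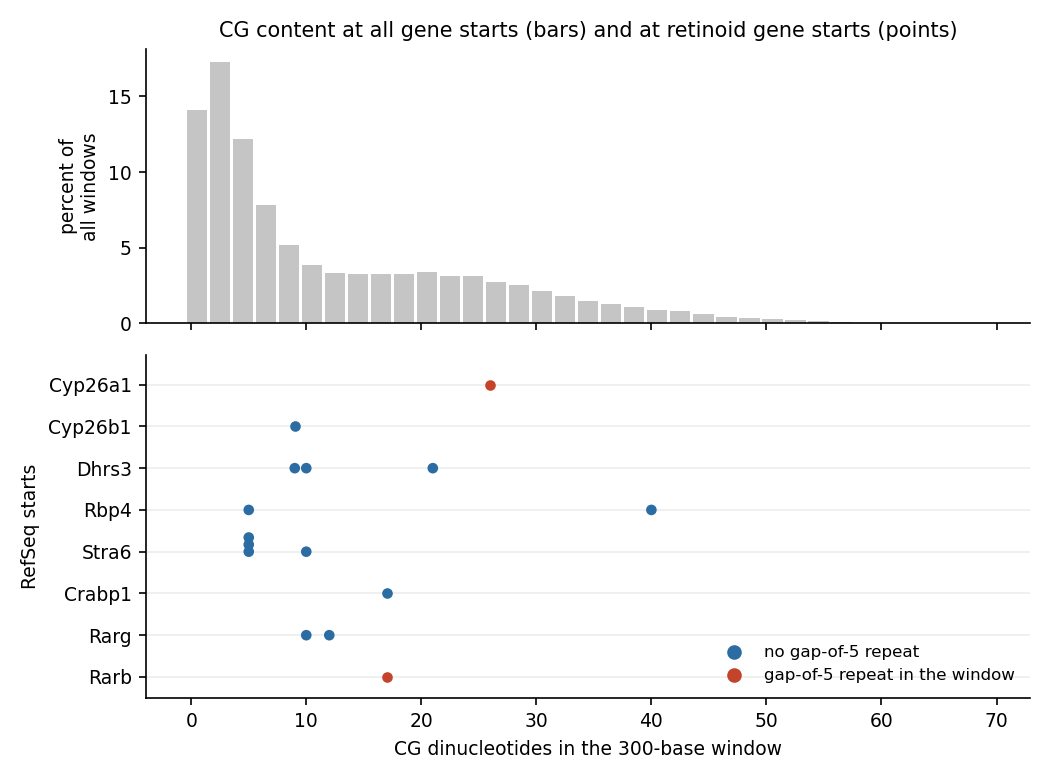
CG dinucleotides in 300-base RefSeq promoter windows. Bars (upper panel) give the percent of all 32851 windows per CG count, and points (lower panel) are the annotated starts of the 8 retinoid genes with an entry, red where the window holds a hexamer repeat with a gap of 5. Cyp26a1 (26) and Rarb (17) are the red points, and one Rbp4 start lies farthest right at 40.

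Expression values are FPKM, fragments scaled to transcript length and library size, so levels can be set side by side between genes. The authors' deposited table gives a single pooled value per gene and group, so no SD, sample value or replicate count stands behind a printed level, and how deeply each library was sequenced is not known from it. The log2 ratio below is log2((knockout FPKM + 0.5)/(control FPKM + 0.5)), which compresses the changes of genes with low levels, and its median over all tested genes was -0.0035. A gene was called where the authors' Cuffdiff test had status OK and q, the p adjusted for multiple testing, at or under 0.05. That rule called 12.9% of 11362 tested genes, 6.90% higher and 6.03% lower in knockout cells. The smallest Cuffdiff p of any tested gene was 5e-05, which gave a q of 0.0012. Many genes share that lowest q, and it does not rank them. Summed over all genes, FPKM came to 559237 in control cells and 504845 in knockout cells, and scaling both to the same sum would raise every ratio of a well expressed gene by 0.15. Mtf2 itself stood at 74.3 FPKM in control cells and 44.7 FPKM in knockout cells, with a q of 0.0496 in the authors' deposited table. The remaining transcripts were thus 60.2% of the control level, and the table does not show which exons they hold, so it checks the labels only weakly.

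Of the 9 genes, 6 were tested, 2 were called lower (Crabp1 and Rarg), 0 were called higher, and 4 were tested and not called. No member had a higher value with an unadjusted p under 0.05 in the authors' deposited table, and 2 had such a p in all. Beside these counts stand the shares over all tested genes of 6.90% higher and 6.03% lower. Since the genes were proposed with these values known, the counts are not read against those shares. The 3 untested genes, Cyp26b1, Stra6 and Rarb, were under 1 FPKM in both groups, and no gene tested by the authors was that low in both.

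**Figure D2:**
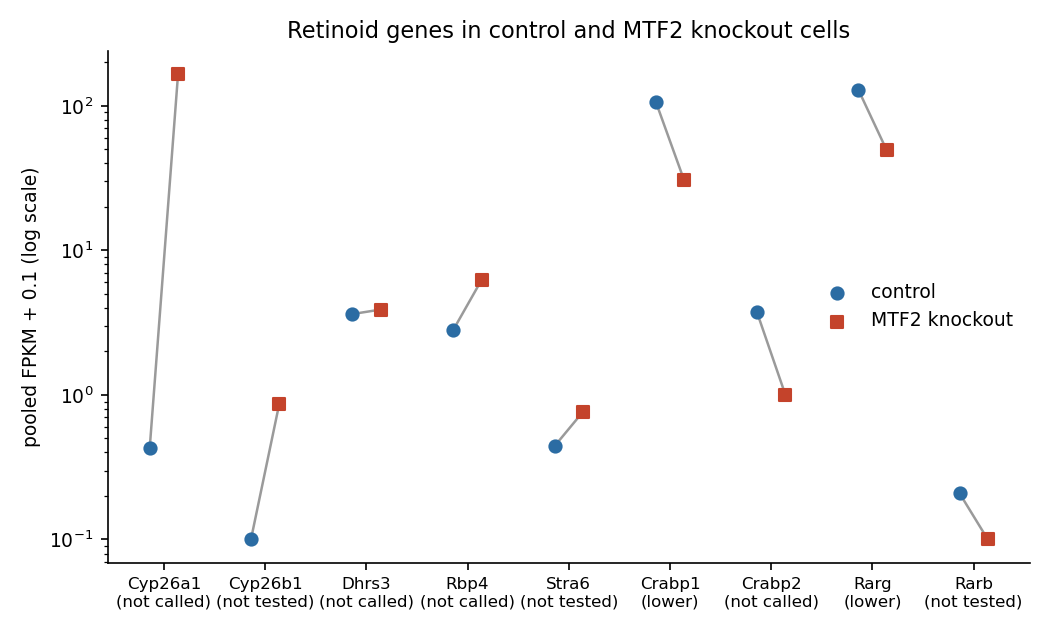
Pooled FPKM of the 9 retinoid genes in control (blue circles) and MTF2 knockout cells (red squares), each with 0.1 added so that a value of 0 can be drawn on the log axis, with the authors' call under each name. Cyp26a1 goes from the low end of the scale to 166 FPKM, while Crabp1 and Rarg start above 100 FPKM in control cells and are the genes called lower.

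Among the breakdown enzymes, Cyp26a1 showed the widest difference in level of all members. Cyp26a1 (ENSMUSG00000024987.5, chr19:37697808-37701528, mm10) encodes the enzyme that clears retinoic acid in early embryos and stem cells. Its pooled level was 0.329 FPKM in control cells and 166 FPKM in knockout cells, a 503-fold higher value and a log2 ratio of 7.65. In order of level among tested genes, it moved from rank 11172 of 11362 in control cells to rank 528 in knockout cells. Its ratio was the second highest among tested genes, after Gm14180, which was listed at 0 in control cells. The authors' deposited table nevertheless gives it a p of 0.225 and a q of 0.476, so it was not called. In bulk RNA a higher level in every cell and a very high level in a few cells cannot be told apart, and with pooled values neither can a high level in 1 library of the 3.

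The lack of a call for Cyp26a1 was examined in the authors' own statistic. The test statistic deposited for Cyp26a1 was 4.88, and 35 tested genes had one at least as large in absolute size. Of these, 32 were called, and the exceptions were Cyp26a1, Clic6 and Gm3625. Clic6, a chloride channel family gene, had a similar pattern, with 0.192 FPKM in control, 55.3 FPKM in knockout cells and a q of 0.333 in the authors' deposited table. Gm3625 differed in direction, with 416 and 275 FPKM and a q of 0.748 in the authors' deposited table. Cyp26a1 was chosen with these values known and entered the authors' test through its knockout level, so its statistic is given as a description. Large ratios without a call were not confined to Cyp26a1. This was counted over tested genes detected in control cells and at 1 FPKM or more in knockout cells. Of the 159 such genes at least 8-fold higher, 54 were called and 105 were not. Of the 126 among them under 1 FPKM in control cells, 26 were called and 100 were not. Over all tested genes, of either direction and any ratio, 12.9% were called. No gene under 1 FPKM in both groups was tested, so these 126 entered the test through their knockout level. Nothing particular to low genes is read from these counts. The pooled levels of Cyp26a1 were thus far apart, and the authors' test did not call the difference.

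**Figure D3:**
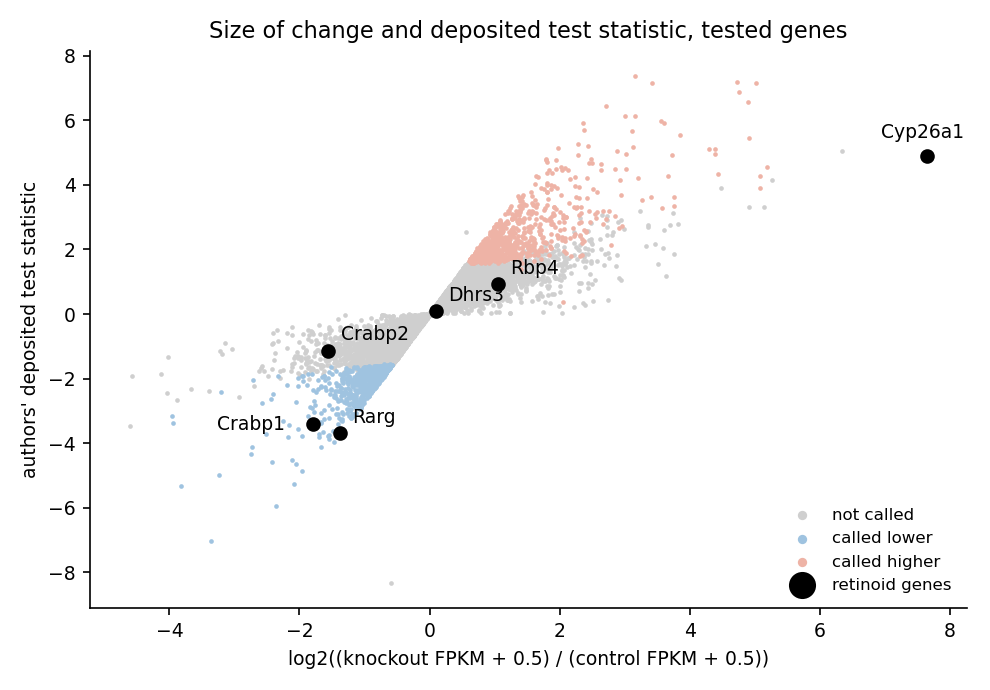
Log2 ratio (horizontal) and the authors' deposited test statistic (vertical) for the 11236 tested genes with a finite statistic; 126 tested genes listed at 0 in a group have none and are not drawn. Black points are the 6 tested retinoid genes: Cyp26a1 lies at a ratio of 7.65 and a statistic of 4.88 without a call, and Crabp1 and Rarg lie among the genes called lower (blue).

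The other breakdown enzymes were near or at 0. Cyp26b1 (ENSMUSG00000063415.12, chr6:84571414-84593908), a related enzyme that acts in the embryonic limb and gonad, was at 0 in the control column and at 0.768 FPKM in the knockout column and was not tested. Cyp26c1 was listed at 0 in both groups. Of the summed FPKM of the 3 Cyp26 genes in knockout cells, 166 FPKM, Cyp26a1 made up 99.5%.

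Dhrs3 (ENSMUSG00000066026.14, chr4:144892827-144928209), which reduces retinaldehyde to retinol and is a known retinoic acid target in many cells, differed little between the pooled groups. It stood at 3.52 FPKM in control cells and 3.79 FPKM in knockout cells, a log2 ratio of 0.09 with a q of 0.940 in the authors' deposited table. Its ratio was 0.07 below the median of its 20 tested neighbours, the 10 nearest on each side (0.16), so its sign depends on whether the local median is taken off.

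Of the transport genes, Rbp4 (ENSMUSG00000024990.12, chr19:38116620-38125321) encodes the retinol carrier secreted by liver and by visceral endoderm. Its level was 2.72 FPKM in control cells and 6.16 FPKM in knockout cells, 2.26-fold higher, with a q of 0.301 in the authors' deposited table, and it was not called. Stra6 (ENSMUSG00000032327.14, chr9:58129088-58153996), the membrane receptor for that carrier, stood at 0.343 and 0.664 FPKM and was not tested.

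Both intracellular carriers of retinoic acid had lower pooled values in knockout cells, and 1 of them was called. Crabp1 (ENSMUSG00000032291.8, chr9:54764748-54773110) fell from 106 FPKM in control to 30.4 FPKM in knockout cells, 28.5% of the control level. Its log2 ratio was -1.79 with a q of 0.0012 in the authors' deposited table, and among tested genes its level went from rank 970 to rank 3020. Crabp2 (ENSMUSG00000004885.5, chr3:87948666-87953376), which delivers retinoic acid to its receptors, was much lower in both groups, at 3.62 FPKM in control cells and 0.902 FPKM in knockout cells. Its knockout level was 24.9% of the control level, a share close to that of Crabp1, but with a q of 0.539 in the authors' deposited table it was not called. Crabp1 made up 96.7% of the summed Crabp FPKM in control cells and 97.1% in knockout cells, and the sum was 110 FPKM and 31.3 FPKM.

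The receptor genes were led by Rarg. Rarg (ENSMUSG00000001288.14, chr15:102234938-102257517), a retinoic acid receptor known to act in embryonic stem cells, fell from 129 FPKM in control to 49.3 FPKM in knockout cells, 38.1% of the control level. The log2 ratio was -1.38 with a q of 0.0012 in the authors' deposited table, and its level went from rank 795 to rank 1974 among tested genes. Rarb (ENSMUSG00000017491.8, chr14:16430842-16575472) was at 0.109 FPKM in control cells, was listed at 0 in knockout cells and was not tested. The highest member in control cells was Rarg, followed by Crabp1, and no other member exceeded 4 FPKM there. In knockout cells the order was Cyp26a1, Rarg and Crabp1, then Rbp4 at 6.16 FPKM.

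Of the other receptor genes, which are no members, the 3 tested had lower pooled values as well. Rara fell from 46.7 to 25.4 FPKM (q = 0.00379) and Rxrb, an obligate partner of the RARs, from 99.5 to 53.1 FPKM (q = 0.0012) in the authors' deposited table. Rxra stood at 18.6 and 14.6 FPKM and was not called, and Rxrg was listed at 0 in control cells, stood at 0.275 FPKM in knockout cells and was not tested. In the receptor list without the members, 3 genes were tested, of which 2 were called lower and 0 higher, with a median log2 ratio of -0.87. The summed FPKM of the 3 RAR genes was 176 in control cells and 74.7 in knockout cells, or 42.4% of the control sum. Rarg made up 73.4% of that sum in control cells and 66.0% in knockout cells. The sum over the 3 RXR genes was 118 and 68.0 FPKM, or 57.6% of the control sum, most of it from Rxrb.

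Genes of retinoic acid synthesis and retinol handling, not all of which make retinoic acid, were mostly low or not called. Of 28 genes of synthesis and retinol handling in the table, 11 were tested, 2 were called higher and 0 lower, with a median log2 ratio of -0.01. The enzymes of the last step were hardly detected: Aldh1a1 was listed at 0 in both groups, Aldh1a2 stood at 0.494 and 0.552 FPKM and Aldh1a3 at 0.140 and 0.572 FPKM, and none of them was tested. Rdh11, a retinaldehyde reductase, rose from 4.35 to 11.5 FPKM (q = 0.0370) in the authors' deposited table. Dhrs4, another retinoid dehydrogenase, rose from 7.87 to 33.2 FPKM (q = 0.0012) in the authors' deposited table. Dhrs4 lies on chromosome 14, where the median log2 ratio of 384 tested genes was 0.70, and its ratio of 2.01 was 1.17 above the median of its 20 tested neighbours. Adh5, the highest gene of the list, stood at 307 and 304 FPKM and was not called.

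Among carriers and uptake genes other than the members, 5 of 10 in the table were tested, 1 was called higher and 0 lower. Lrp2, encoding megalin, an endocytic receptor that takes up retinol bound to RBP4, rose from 2.67 to 10.3 FPKM (q = 0.0012) in the authors' deposited table. Scarb1 and Rlbp1 were not called, at 38.9 and 25.3 FPKM and at 9.41 and 5.54 FPKM.

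Known response genes of retinoic acid moved in both directions. Of 41 in the table, 21 were tested, 4 were called higher and 4 lower, with a median log2 ratio of 0.11. Among the genes that rose in the authors' deposited table were Meis1 (0.878 to 5.65 FPKM), Efnb1 (7.75 to 31.4 FPKM) and Pbx3 (2.74 to 9.22 FPKM). Stra8, a germline gene named for its induction by retinoic acid, was listed at 0 in knockout cells and at 12.1 FPKM in control cells, with a q of 0.0012 in the authors' deposited table. Cdx1, a caudal homeobox gene with a known retinoic acid response, fell from 21.3 to 7.08 FPKM, Tfap2c from 16.9 to 7.41 FPKM and Pbx2 from 83.2 to 52.9 FPKM, all called in the authors' deposited table. Bhlhe40 stood at 9.74 and 33.3 FPKM with a q of 0.0729 in the authors' deposited table and was not called, and Gbx2 at 22.3 and 24.2 FPKM.

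The receptor coregulators differed little. Of 20 tested genes, 1 was called lower and 0 higher, with a median log2 ratio of -0.01. The corepressor gene Ncor1 stood at 54.4 and 51.7 FPKM and the coactivator gene Ncoa3 at 57.0 and 56.8 FPKM, and neither was called. Of 15 other nuclear receptors tested, 0 were called by the authors' Cuffdiff test, and 0 had an unadjusted p under 0.05. Esrrb, an orphan receptor of the pluripotency network, was the highest of them at 795 and 730 FPKM. Over all synthesis, breakdown, carrier, receptor and response genes that are no members, 40 of 84 were tested, and 7 were called higher and 6 lower. That is 32.5% of those tested, against 12.9% over all tested genes. Of the 44 that were not tested, 41 were under 1 FPKM in both groups. These lists were written with results of the same table known, and a gene low in control cells could enter the test through its knockout level alone, so nothing particular to them is read from that share.

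**Figure D4:**
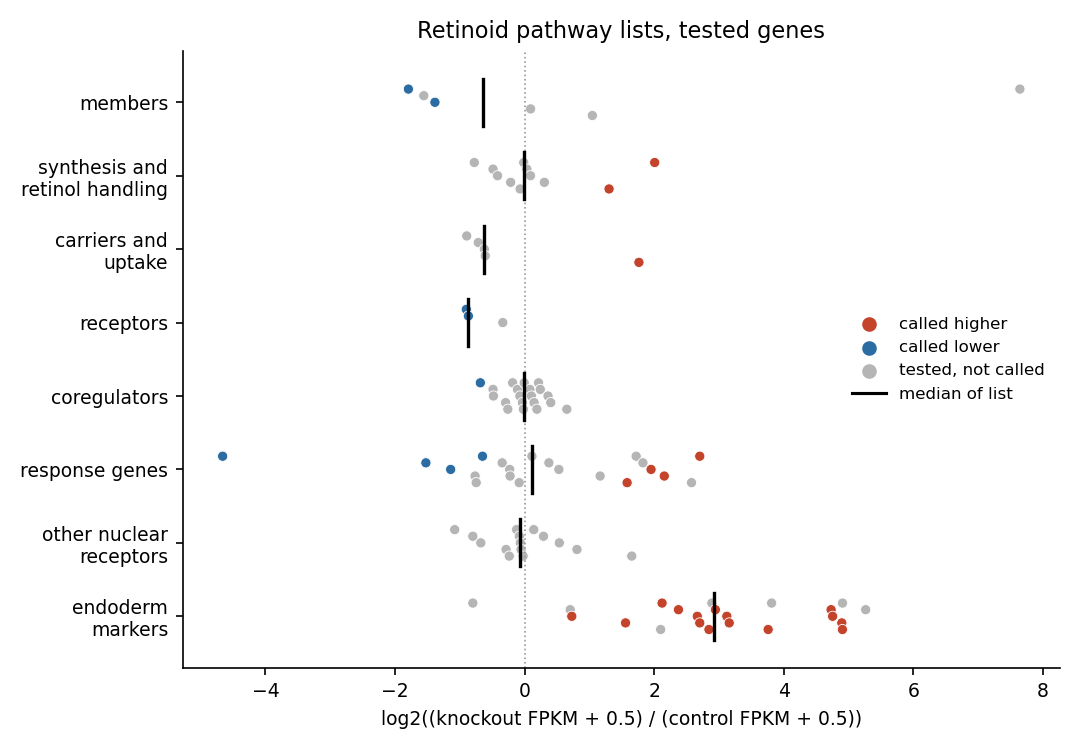
Log2 ratio of each tested gene by list, red where called higher, blue where called lower and grey where not called, with the list median as a black bar. The 3 tested receptors all lie below 0, the response genes lie on both sides, and the endoderm markers have a median of 2.92.

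Neighbouring genes were compared because a whole region can differ between a knockout line and its control. Around Cyp26a1 and Rbp4, which lie 415 kb apart, the median log2 ratio of the 10 nearest tested genes on each side, 20 in all, was 0.27 for either gene. Of the 20 around Cyp26a1, 3 were called higher and 2 lower, and of those around Rbp4, 4 and 2. Over all tested genes 6.90% were called higher and 6.03% lower. The 2 tested genes between them, Myof (-0.16) and Cep55 (0.67), were not called. Exoc6, 14.6 kb before Cyp26a1, had a ratio of -0.56 and was not called. Within 2 Mb of Cyp26a1 there were 20 other tested genes, with a median ratio of 0.14, and the highest besides Cyp26a1 was Ankrd1 at 4.73. Ankrd1 was listed at 0 in control cells and stood at 12.8 FPKM in knockout cells (q = 0.0012) in the authors' deposited table. March5 (0.80) and Kif11 (0.82) in that window were called higher as well, and Hells (-0.92) and Fra10ac1 were called lower. On the far side of Rbp4, Fra10ac1 fell from 15.8 to 4.63 FPKM (q = 0.00953) in the authors' deposited table.

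Around Crabp1, 0 of the 20 tested neighbours, taken in the same way, were called lower by the authors. Its nearest tested neighbours, Wdr61 and Ireb2, had ratios of 0.23 and 0.42, and the median of the 20 neighbours was 0.21 with 1 called higher and 0 lower. For Rarg the median of the 20 neighbours was -0.07, with 2 called higher and 2 lower. The gene 3.0 kb from Rarg, Itgb7, fell from 21.9 to 11.3 FPKM (q = 0.0127) in the authors' deposited table, and Mfsd5 on the other side had a ratio of -0.63 and was not called. The keratin genes Krt8 and Krt18, within 0.25 Mb of Rarg, were called higher, with ratios of 3.01 and 3.55. Around Stra6, Islr2 fell from 19.0 to 5.66 FPKM (q = 0.0012) in the authors' deposited table. Rarb lies on chromosome 14, but the median of its 20 tested neighbours was 0.03, and Top2b next to it had a ratio of 0.90 with a q of 0.0727 in the authors' deposited table. Overlapping or adjacent genes cannot be separated by strand here, since no source used here states the strand setting of the counting.

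**Figure D5:**
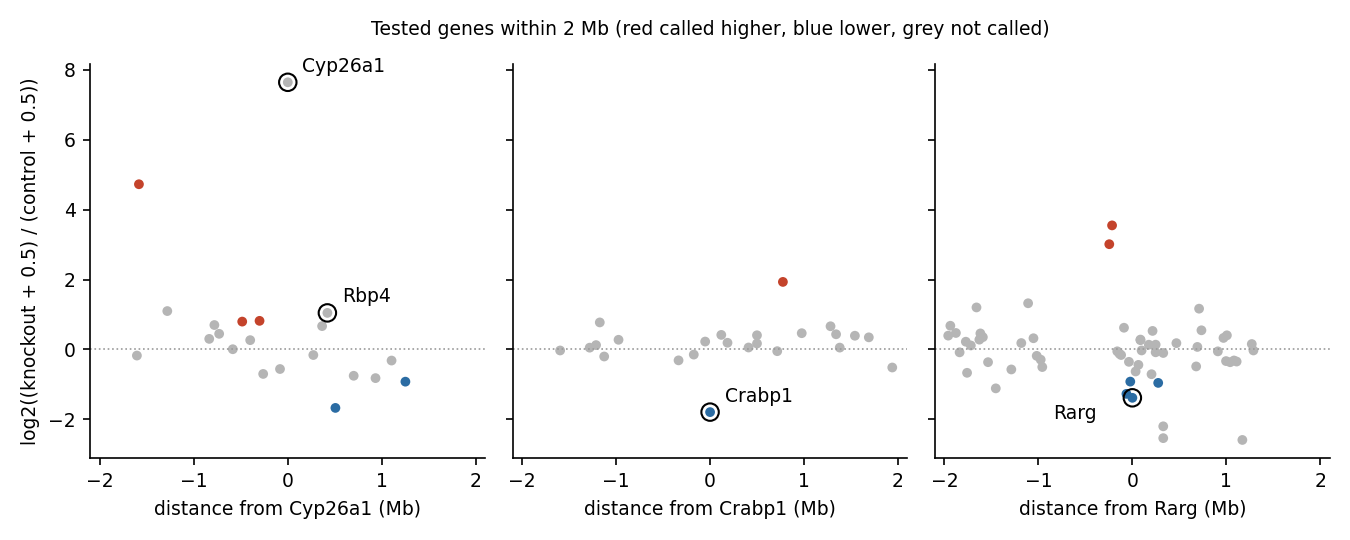
Log2 ratio of tested genes by distance from Cyp26a1, Crabp1 and Rarg, within 2 Mb, with the retinoid genes circled. Cyp26a1 (7.65) and Crabp1 (-1.79) stand apart from the genes around them, and near Rarg (-1.38) lie genes called lower as well as Krt8 and Krt18, called higher. Genes called in both directions also lie within 2 Mb of Cyp26a1, the highest of them Ankrd1 (4.73).

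Markers of another cell type are given beside the values of the retinoid genes. Primitive and visceral endoderm are extraembryonic tissues, and visceral endoderm makes retinol carriers. Of 22 tested endoderm markers, 15 were called higher and 0 lower, with a median log2 ratio of 2.92. Their summed level was 1947 FPKM in control cells and 6369 FPKM in knockout cells, or 489 and 2071 FPKM without Apoe. Dab2 rose from 0.526 to 30.3 FPKM, Sparc from 180 to 788 FPKM, and Apoe, a lipoprotein gene, from 1458 to 4298 FPKM, all called in the authors' deposited table. The defining visceral endoderm genes Ttr and Afp were listed at 0 in control cells and stood at 1.29 and 0.0945 FPKM in knockout cells, and Apob was listed at 0 in knockout cells. Hnf4a stood at 2.25 and 1.08 FPKM. The part of these markers in the values of Cyp26a1, Rbp4 and Lrp2 was not tested.

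Markers of embryonic stem cells had similar sums in both groups, 6005 and 5821 FPKM over 14 genes, but single genes differed. Dppa5a, the highest of them, stood at 1481 and 1876 FPKM and was not called. Among the 13 tested, 5 ratios were above 0 and 8 below. Of these 13, 2 were called higher, Tfcp2l1 and Tdgf1, and 1 lower, Utf1 (352 and 215 FPKM). That is 23.1%, against 12.9% over all tested genes. Pou5f1 stood at 1312 and 1212 FPKM and was not called. Neural markers, which retinoic acid induces in differentiating stem cells, summed to 162 and 127 FPKM. Most of that sum was Tubb3, at 145 and 110 FPKM, which has a locus entry that 74 genes share. Of 5 tested neural markers, 0 were called by the authors' Cuffdiff test, and 1 had an unadjusted p under 0.05. That gene was Sox1, which was higher in knockout cells (2.66 and 5.31 FPKM), while the other 4 tested had ratios below 0. Fibroblast markers, a check for feeder cells, summed to 44.7 and 33.0 FPKM. Of 3 tested, 1 was called higher, Thbs1, and 1 lower, Fbln1, in the authors' deposited table.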

How the data were processed

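Polyadenylated RNA of 3 control and 3 MTF2 knockout E14 libraries was sequenced; groups follow the labels. Tools named in the submitters' processing notes, without roles, are TopHat2 2.1.0, Cuffdiff 2.2.1.3, Bowtie 1.0 and deepTools, beside mm9 and mm10 as builds. The FPKM values, 1 pooled value per gene and group, were made by the authors, per the file headers. The authors also deposited a log2 fold change, without a pseudocount. The deposited test statistic is a score made by the authors' tool. The p-value and q-value are those the authors deposited, and q equals a Benjamini-Hochberg adjustment over genes with status OK to within 5.2e-07. Of 22462 genes, 11362 had status OK, 11098 NOTEST and 2 FAIL.

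Ratios used a pseudocount of 0.5 FPKM. No test across libraries could be made from pooled values, so calls are Cuffdiff's (q at or under 0.05). The p-values measure what Cuffdiff estimated as spread between libraries that the series design calls biological replicates. Coordinates are the table's, 1-based. All members lie on the RefSeq chromosome on GRCm38.p6, 7 of 9 with both ends within 2 kb, and RefSeq extends Stra6 and Rarb farther at 1 end. Promoter windows came from RefSeq, and hexamer repeats were searched with Python 3.11.15. Scripts were tested on simulated data.

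The members and gene lists were chosen with earlier results of these data known. Named genes are the members, every called gene and the 3 highest uncalled tested genes of each pathway list, up to 2 called in each direction and the 2 highest of each marker list, and the nearest tested neighbours. Some genes that this rule takes are not reported here. Mtf2, Clic6, Gm3625, Gm14180, Ankrd1, March5, Kif11, Hells, Krt8, Krt18, Cyp26c1, Aldh1a1, Aldh1a2, Aldh1a3, Hnf4a, Ttr, Afp, Apob, Rxrg, Syndig1 and Sox1 were added after their values were seen. Alternatives tried were a stricter q (0.01), at least 2-fold change, an FPKM of at least 1 in both groups, no status filter, a recomputed adjustment, a normal p from the test statistic, pseudocounts of 0.1 and 1 or none, median centring, equal summed FPKM and removal of the neighbours' median.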

Additional observations from a re-analysis of the deposited data

How the results depend on the processing

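With a normal p computed from the deposited test statistic, members called higher went from 0 to 1 (Cyp26a1, a member chosen with its values known, so this lends no support to the difference), members called lower from 2 to 1 (Rarg kept, q = 0.0250; Crabp1 lost, q = 0.0557), other retinoid pathway genes called from 13 to 1 (Efnb1), and coregulators from 1 to 0. Over the 11236 tested genes with a finite statistic, that setting called 95 higher and 29 lower. The 126 tested genes without one were left out, among them Stra8, a pathway gene whose call was thus dropped and not retested. Coregulators also went from 1 to 0 at a q of 0.01 and at a 2-fold minimum. Under the other settings run, the members' counts stayed at 0 higher and 2 lower, other pathway genes at 10 to 13 and endoderm markers at 11 to 15. The stricter q and the 2-fold minimum could only remove calls. No status filter and the recomputed adjustment gave the main counts over all genes, 784 higher and 685 lower. An FPKM of at least 1 in both groups left out Cyp26a1 and Crabp2. The steady 0 higher is therefore no check of that count. Over all genes, calls were 439 higher and 336 lower at a q of 0.01 and 567 and 332 at a 2-fold minimum. The log2 ratio of Cyp26a1 was 6.97 with a pseudocount of 1 and 8.97 with none. None of the called members, other pathway genes and coregulators changed sign under the pseudocounts and scalings run, which were not run for the marker lists and the neighbours. No paired analysis was possible because the table holds 1 pooled value per group. For the same reason no library could be left out. Depth per library is unknown, and genes under 1 FPKM in both groups, such as Cyp26b1, Stra6 and Rarb, carry no test.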
